A study of Mus musculus with 8 samples.

Results

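The histone genes of mouse embryonic fibroblasts were compared between wild-type cells and cells lacking Cbx2, a chromodomain protein of polycomb repressive complex 1, which keeps developmental genes silent. Primary fibroblasts came from embryonic day 18 wild-type littermates and from Cbx2-/- embryos, and were cultured to passage 2. RNA was sequenced from 2 libraries per genotype, each from 200000 cells and about 4.62 Gb of sequence. The labels do not tell whether 1 embryo or several gave the 2 libraries of each genotype, so p-values measure only the spread between these libraries, which may be technical. The 2 ATAC-seq libraries per genotype were not analysed here. Members were all rows of the authors' deposited gene table whose symbol follows the older mouse names of histone genes (Hist1h to Hist4h, H2af, H3f3a, H3f3b and H1f), which gave 74 of 17441 genes. They comprise 63 genes with replication-dependent names (6 of H1, 16 of H2A, 17 of H2B, 12 of H3 and 12 of H4) and 11 genes of replacement variants (2 of H1, 7 of H2A and 2 of H3.3). By gene identifier all 74 were found in RefSeq, where 2, Hist1h2al and H2afy3, are transcribed pseudogenes. Hist1h2al lies apart from the other Hist1 genes.

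DNA is wound around octamers of the core histones H2A, H2B, H3 and H4, and linker histone H1 binds where it enters and leaves. Replication-dependent genes lie in clusters, lack introns in their main transcripts and are expressed in S phase; their mRNAs end in a stem-loop in place of a poly(A) tail. Replacement variants come from single genes with polyadenylated mRNAs and are made through the whole cell cycle. The labels give total RNA as the molecule and do not say whether poly(A) RNA was selected, a step that would reduce reads from stem-loop mRNAs. Many members of a class encode the same or nearly the same protein, so reads can be divided between copies.

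The copies are visible in their promoters. The stretches below, from RefSeq (GRCm38.p6, the assembly of mm10), read 5′ to 3′ on the strand of the gene and end at the base before its start. They are shown for the divergent promoter beside the member that fell most, for 2 pairs of copies and for the member that rose. Capitals mark the octamer ATGCAAAT, the CCAAT box CCAAT and the TATA box TATAAA on either strand.
Hist1h2ac, chr13:23683960-23684209, minus strand: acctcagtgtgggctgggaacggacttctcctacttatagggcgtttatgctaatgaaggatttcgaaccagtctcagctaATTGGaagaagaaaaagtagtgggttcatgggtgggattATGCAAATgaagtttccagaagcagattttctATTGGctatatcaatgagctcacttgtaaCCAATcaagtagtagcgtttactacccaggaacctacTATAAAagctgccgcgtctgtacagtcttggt
Hist1h2bq, chr13:21810200-21810319, minus strand: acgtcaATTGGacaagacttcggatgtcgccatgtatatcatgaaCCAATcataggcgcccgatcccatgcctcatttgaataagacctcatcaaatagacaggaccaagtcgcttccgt
Hist1h2br, chr13:21833623-21833742, plus strand: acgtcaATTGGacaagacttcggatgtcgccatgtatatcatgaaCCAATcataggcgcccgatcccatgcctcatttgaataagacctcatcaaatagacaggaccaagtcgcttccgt
Hist2h3c1, chr3:96246565-96246684, plus strand: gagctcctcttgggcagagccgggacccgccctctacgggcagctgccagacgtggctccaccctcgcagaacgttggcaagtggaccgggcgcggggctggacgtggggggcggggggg
Hist2h3c2, chr3:96239128-96239247, minus strand: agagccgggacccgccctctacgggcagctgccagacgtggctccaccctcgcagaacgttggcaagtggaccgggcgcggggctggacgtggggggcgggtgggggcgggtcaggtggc
H2afj, chr6:136808128-136808247, plus strand: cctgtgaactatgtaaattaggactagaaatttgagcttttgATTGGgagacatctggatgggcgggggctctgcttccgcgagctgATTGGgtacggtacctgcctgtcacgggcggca
The Hist1h2bq and Hist1h2br stretches were identical at 120 of 120 bases, and their whole windows of 300 bases, which run into the gene, also matched at every base. Hist2h3c1 and Hist2h3c2 aligned at 284 of 315 columns (90.2% identity), with their starts offset. Hist1h4j and Hist1h4k followed at 87.3%. Over 337 pairs within a class the median promoter identity was 48.1%, against 45.6% over 1808 pairs of different classes. In the 250 bases before the start, the CCAAT box was found in 47 of 57 replication-dependent members with a RefSeq promoter (82.5%) against 37.5% of 27025 genes. The classes differed: it was in all such H1, H2A and H2B members and in 8 of 10 of H3. Of the H4 members 3 of 11 had it (27.3%), a share below that of all genes. The octamer was found in 6 of 15 H2A members and 6 of 15 H2B members (40.0% each), in 0 of the H1, H3 and H4 replication-dependent members, and in 1.81% of all genes. Where an H2A and an H2B gene face away from each other at less than the window's length, 1 octamer can count for both. The TATA box was in 24 of 57 (42.1%) against 14.3%. The octamer and CCAAT letters do not overlap in the stretches shown, and neither copy of the H3 pair has any of the 3 motifs in its 120 bases. A match describes these letters in this window and is not a measured binding site. Hist1h2bc, H2afx and 6 further members have no entry in the promoter table.

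In the authors' deposited table each genotype has a single normalised read signal per gene, and no SD can be given for it. Those signals are not divided by gene length. Fold changes there are knockout over wild type and are pulled toward 0 where reads are few. The columns give the same ratios, so where reads are few their values lie closer together than the reads do. Hist2h3c2, with 0 reads in both wild-type libraries, has 10.5 in the wild-type column. A gene was called changed at an adjusted p under 0.05 in the authors' DESeq2 comparison, and the standard error (SE) of a log2 fold change was derived from the deposited p. The targeted gene checks the labels: in the authors' deposited table Cbx2 had 346.8 in wild type and 29.0 in knockout. Of the 74 members, 3 were called (4.05%), 1 higher and 2 lower, against 7.78% of all genes, with 3.48% higher and 4.30% lower. An unadjusted DESeq2 p under 0.05 was reached by 9 members (12.2%) against 14.6% of all genes. By the authors' stricter rule, which also asks for a 2-fold change, 1 member was called against 1.69% of all genes. These shares are not matched for depth, so they do not tell whether called genes were more or less frequent among the histone genes. Of the 74 members, 58 had a mean under 50, where 1.65% of all genes were called. The 3 called members were among the 16 with a mean of 50 or more. The median log2 fold change of the members was 0.11 in the authors' deposited table, beside 0.0036 over all genes. That median is the value of Hist1h2bf, Hist1h2bn and Hist1h2bp. By reads recovered as described further on, each had a single read in a knockout library and 0 elsewhere. The median therefore rests on genes with too few reads for a comparison and is not read as a shift of the histone genes.

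**Figure D1:**
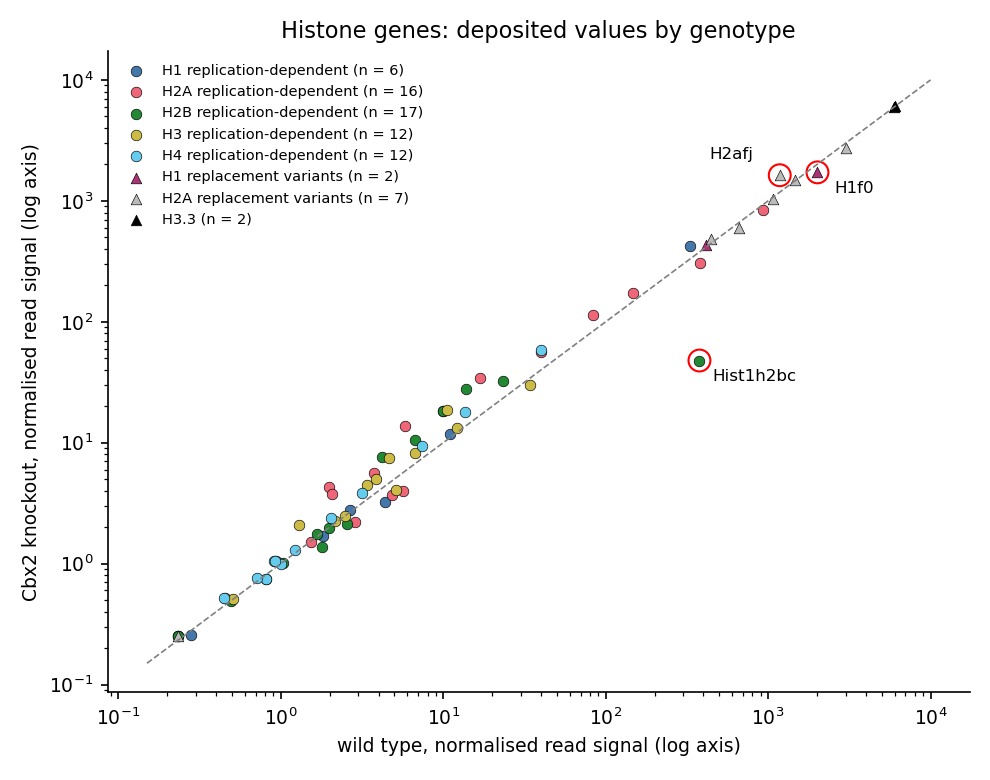
Normalised read signal of each of the 74 histone genes in wild type (x axis) and knockout (y axis), both on log axes, coloured by class, with circles for replication-dependent genes, triangles for replacement variants and the dashed line at equal values. The 3 called genes are ringed in red, and Hist1h2bc lies far below the line while replacement variants and H3.3 lie on or close to it.

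Hist1h2bc, which encodes a replication-dependent H2B, had the largest change of the 74. In the authors' deposited table its signal was 377.8 for wild type and 47.8 for knockout, a 7.90-fold lower value (log2 fold change -2.98, implied SE 0.22, DESeq2 adjusted p 1.73e-40). The gene (identifier 68024) lies on chromosome 13 from 23684199 to 23692480 in GRCm38 and is protein-coding in RefSeq. In wild type it held 82.7% of the summed signal of the 17 H2B members, so the class sum followed it: the authors' deposited table gives 456.6 and 172.6, wild type first. Without Hist1h2bc the H2B sums in the authors' deposited table were 78.8 and 124.8, the other way round. That gain of 46.0 over 16 genes compares with a loss of 329.9 at Hist1h2bc, and 0 other rows of the table are described as histone H2B. The columns understate the gain of such low genes. By scaled recovered reads, described further on, the 16 had 83.4 and 57.6 in the wild-type libraries and 121.2 and 145.1 in the knockout libraries. For Hist1h2bc reads per library could not be recovered. The implied SE was larger than that of 99.5% of 1108 genes of like mean (median 0.18). Those genes were matched on the mean of both genotypes and not on the lower value, which was 47.8 here. The rank therefore cannot tell spread between libraries from the size of the change, and nothing is concluded from it.

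No neighbour of Hist1h2bc was called. Hist1h2ac, an H2A gene that reads in the opposite direction, starts 239 bases away. Its promoter shown above reaches 23684209, past the start of Hist1h2bc at 23684199. For Hist1h2ac the wild-type libraries had 3 and 2 reads (recovered as described further on), and the knockout libraries had 5 and 9. Both knockout libraries were above both wild-type libraries there, at counts too low for a call (DESeq2 adjusted p 0.857, log2 fold change 0.59 in the authors' deposited table). Within 100 kb of Hist1h2bc lie 14 other members, of which 0 were called, with log2 fold changes from -0.51 to 1.01 in the authors' deposited table. Those values are pulled toward 0 where reads are few. Among neighbours with recovered reads in both genotypes, log2 ratios of scaled reads ran from -2.47 (Hist1h2bb, 5 and 0 reads against 0 and 1) to 1.38 (Hist1h2ac). A mean under 50 was found for 13 of these neighbours, and of all genes with such a mean 1.65% were called. Over the 2.05 Mb of the Hist1 cluster (50 members, chromosome 13 from 21715711 to 23764412), Hist1h2bc was the single member called.

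**Figure D2:**
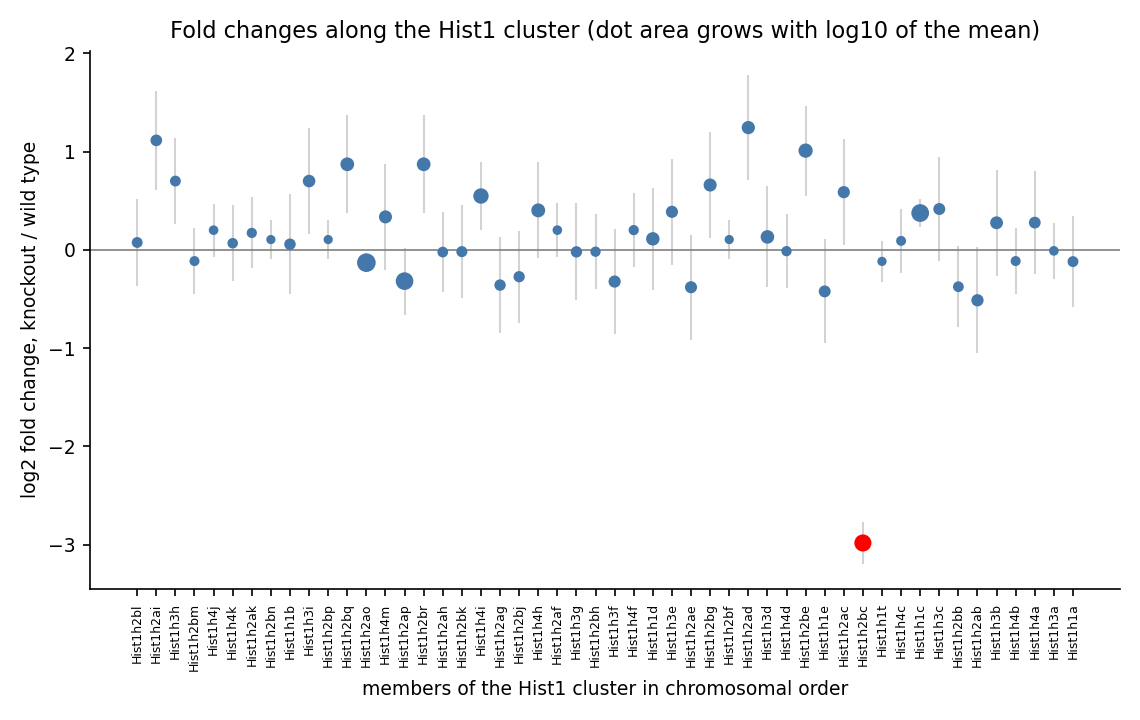
Deposited log2 fold change (y axis, bars show the implied SE) of the 50 Hist1 members on chromosome 13 in chromosomal order (x axis), with dot area growing with the log10 mean and the called gene in red. Hist1h2bc at -2.98 is the one called gene, and the 14 members within 100 kb lie between -0.51 and 1.01. Deposited values are pulled toward 0 where reads are few. The bars are short there too (implied SE 0.20 for Hist1h2bf, which had 1 read), so low genes are not shown to be unchanged.

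Among replacement variants, H2afj rose and H1f0 fell, both by much less than Hist1h2bc. H2afj encodes H2A.J, a variant known to accumulate in senescent human fibroblasts. In the authors' deposited table it had 1179 in wild type and 1629 in knockout (log2 fold change 0.47, implied SE 0.077, DESeq2 adjusted p 6.42e-08) and lies on chromosome 6 from 136808248 to 136810074. H1f0 encodes H1.0, the linker histone of quiescent and differentiated cells. The authors' deposited table gives it 2013 in wild type and 1720 in knockout (log2 fold change -0.23, implied SE 0.069, DESeq2 adjusted p 0.0176) and lies on chromosome 15 from 79028212 to 79030504. To see how the calls depend on spread that 2 libraries may not show, a coefficient of variation of 10% per library was added, which puts 0.14 log2 beside the implied SE; the z-test adjusted p was 0.132 for H2afj and 1.00 for H1f0. With both columns scaled to the same total the H1f0 call was also lost (z-test adjusted p 0.0803), as it was with Bonferroni adjustment.

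The other 9 variant genes were not called. H3f3a and H3f3b, which encode the same H3.3 protein used for nucleosome assembly outside S phase, had log2 fold changes of 0.0019 (SE 0.045) and 0.012 (SE 0.046) in the authors' deposited table. Their levels were 6075 and 6083 for H3f3a and 5975 and 6025 for H3f3b, wild type first, in the authors' deposited table, the highest of the 74. H2afz, the main H2A.Z gene, had values of 3009 and 2720 (log2 fold change -0.15, DESeq2 adjusted p 0.173), and H2afv, the other H2A.Z gene, 442.0 and 480.6 in the authors' deposited table. H2afx, whose protein is phosphorylated at DNA breaks, had 1463 and 1487 (log2 fold change 0.023) in the authors' deposited table. For the macroH2A genes, whose variants carry a large extra domain, values were 1071 and 1035 for H2afy and 661.5 and 598.5 for H2afy2 in the authors' deposited table. H1fx, which encodes H1x, had 414.8 and 429.9 in the authors' deposited table. The pseudogene H2afy3 had 1 read in 1 knockout library and 0 in the other 3.

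**Figure D3:**
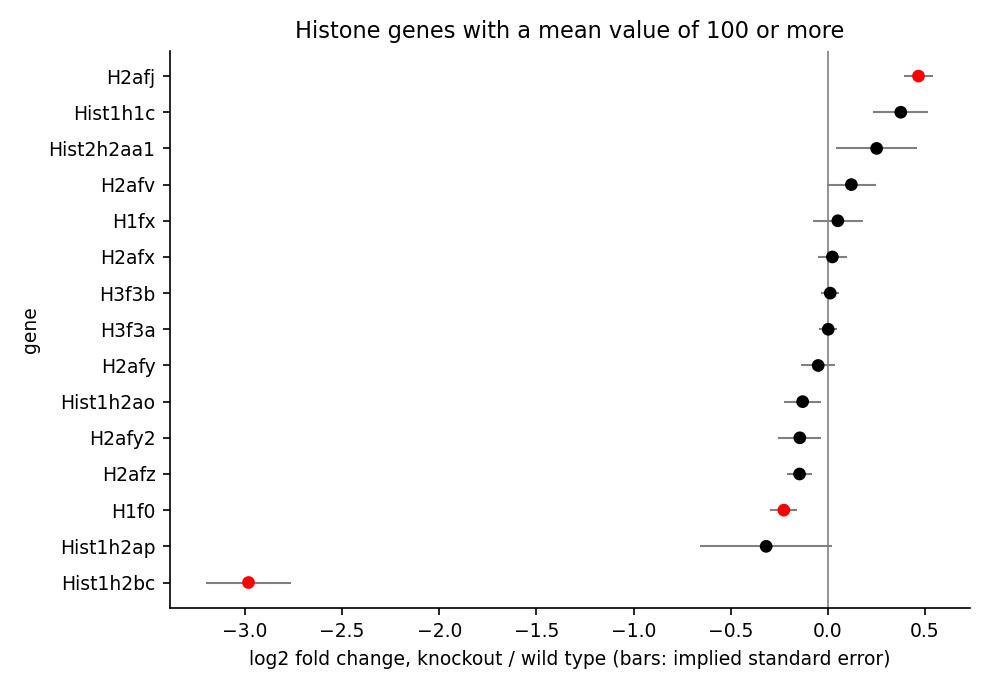
Deposited log2 fold change (x axis, bars show the implied SE) of the 15 members with a mean signal of 100 or more, one per line on the y axis, called genes in red. All but Hist1h2bc lie between -0.32 and 0.47.

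Replication-dependent genes gave few reads. Their 63 genes made up 0.0133% of the wild-type sum and 0.0126% of the knockout sum in the authors' deposited table, against 0.128% and 0.130% for all 74. Per kilobase of gene model, the 12 replication-dependent H3 genes summed to 149.8 in wild type and the 2 H3.3 genes to 8592. The mean of both genotypes was under 10 in 46 members and under 1 in 15. Above 100 stood 4 replication-dependent genes besides Hist1h2bc. Hist1h1c, the H1.2 linker gene, had 329.1 and 426.9, wild type first, in the authors' deposited table (log2 fold change 0.38, SE 0.14, DESeq2 adjusted p 0.0882); scaled to equal totals it passed (z-test adjusted p 0.0457). Hist1h2ao had 927.0 and 847.2, and Hist2h2aa1 146.4 and 174.2, in the authors' deposited table. Hist1h2ap had 379.3 and 304.4 in the authors' deposited table, with an SE of 0.34 that exceeded 99.8% of those of 1436 genes of like mean (median 0.15). Hist1h2ao held 57.1% of the wild-type H2A sum.

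For the 58 members with a mean under 50, whole reads in each of the 4 libraries could be recovered from the deposited values. The libraries are called A and B within a genotype, since which replicate number each has is not known. Summed over the 57 replication-dependent genes among them, the wild-type libraries had 331 and 277 reads, the knockout libraries 506 and 534. Divided by the size factors, knockout reads were 1.60 times those of wild type (95% exact interval 1.45 to 1.78, counting error only). All genes with a mean under 50 had a ratio of 1.12 by the same measure. Leaving out 1 library at a time, the histone ratio ranged from 1.42 to 1.83. With 2 libraries against 2, no exact permutation test can go below 0.333, so no p is given. For the same genes the fold changes in the authors' deposited table are smaller.

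Among these low genes, the summed reads of H2A, H2B and H4 members were higher in both knockout libraries, while for H1 no difference was detectable at this depth. Hist1h2ao, Hist1h2ap, Hist1h2bc and Hist1h1c are not among them, and over all members the class sums in the authors' deposited table were 1622 and 1571 for H2A, 456.6 and 172.6 for H2B and 349.2 and 446.7 for H1, wild type first. For 12 H4 genes the wild-type libraries had 68 and 62 reads against 108 and 106 in the knockout (ratio of scaled reads 1.54, interval 1.24 to 1.94). For 12 H2A genes they were 87 and 54 against 127 and 172 (1.97, 1.63 to 2.45), and for 16 H2B genes 78 and 58 against 125 and 150 (1.89, 1.54 to 2.35). In these 3 classes both knockout libraries were above both wild-type libraries. The 12 H2B genes with gene models up to 1000 bases did not separate, with 23 and 15 against 23 and 40 reads (1.54, or 1.13 without knockout B). For 12 H3 genes reads were 80 and 80 against 125 and 88 (1.25, 1.02 to 1.55), and after scaling knockout B lay within the range of wild type; without knockout A the ratio was 1.03. For 5 H1 genes they were 18 and 23 against 21 and 18 (0.898, 0.562 to 1.42), and the genotypes overlapped. Differences between classes were not tested.

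**Figure D4:**
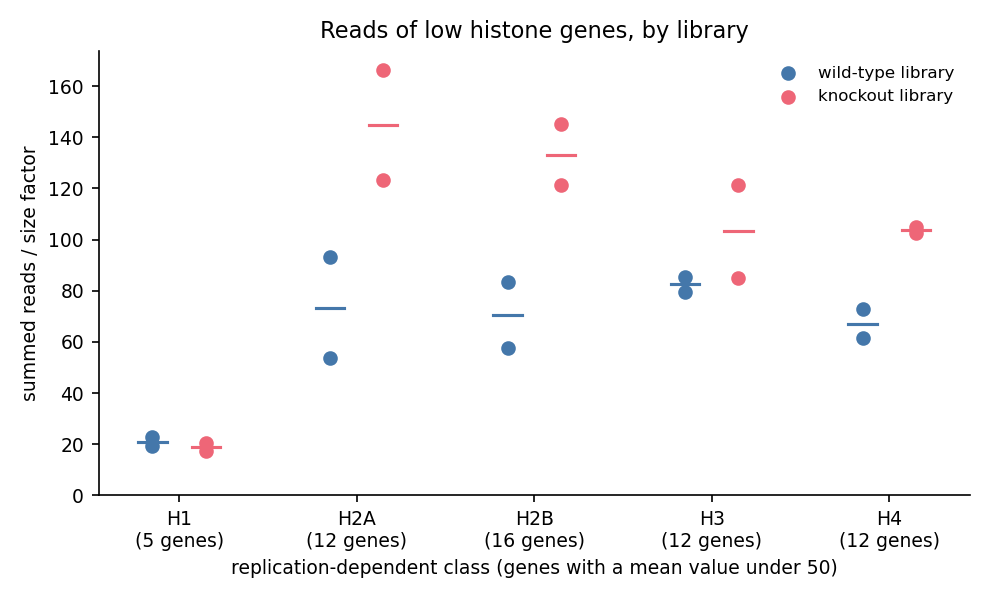
Reads divided by size factor (y axis) summed over the replication-dependent members with a mean under 50 in each class (x axis), 1 dot per library, with short lines at the mean of each genotype. Knockout dots lie above wild-type dots for H2A, H2B and H4, and the H1 dots overlap.

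Examples of single genes, chosen after their values were seen, are given here at low counts. Hist1h2be had 11 and 12 reads in wild type against 30 and 31 in knockout, and Hist1h2ad 2 and 5 against 15 and 18. Hist1h4i, the H4 gene with the most reads, had 43 and 32 against 62 and 61. The pseudogene Hist1h2al had 12 and 17 against 37 and 38, and Hist2h2bb 2 and 3 against 10 and 9. In each of these 5 both knockout libraries were above both wild-type libraries. Some genes did not separate: Hist2h2be had 26 and 17 against 28 and 41, Hist1h2bg 5 and 5 against 4 and 21, and Hist1h1d 7 and 14 against 16 and 9. Over all 58 members with recovered reads, 17 had both knockout libraries above both wild-type libraries (29.3%), against 22.1% of the 6126 genes with a mean under 50. In the opposite direction it was 5 members (8.62%) against 16.3%: Hist1h2ab (7 and 6 reads against 1 and 5), Hist1h1e (6 and 4 against 2 and 3), Hist1h2ag (4 and 3 against 0 and 3), Hist1h1a and Hist2h3c1. With Hist1h2bq and Hist1h2br counted once, and without the H3 pair described next, it was 15 above (27.3%) and 4 below (7.27%) of 55 members. Many of these members have few reads, and several are copies, so they are not independent. The shares are given as a description only.

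None of the 18 members with a mean of 5 to 50 was called in the authors' DESeq2 comparison, against 4.11% of the 2458 genes with such means, and 3 had an unadjusted DESeq2 p under 0.05. With limma on the recovered reads, a test added after the data were seen, 7 of the 18 were called (38.9%), 6 higher and 1 lower, against 12.4% of the 2458 genes, with 8.42% higher. Of the 18, 3 reached that mean with both wild-type libraries at or under 5, so the share called describes these members and is not support for a direction. The 7 were Hist1h2ad (limma adjusted p 0.0140), Hist1h2al (0.00911), Hist1h2be (0.0140), Hist1h2bq, Hist1h2br, Hist2h3c1 and Hist2h3c2. Hist1h2bq and Hist1h2br had the same reads in every library, so they are 1 result. Hist2h3c1 and Hist2h3c2 are the H3 pair described next, and neither of their calls can be read as a difference between genotypes. The 38.9% therefore counts copies more than once. Leaving out 1 library left between 0 and 2 limma calls, of Hist2h3c1 or Hist2h3c2. That fit has a lone library in 1 genotype, which is assumed to vary like the other genotype. Whether calls were lost through its smaller size or because they rest on single libraries was not tested. The limma log2 fold change stayed above 0 for the 6 and below 0 for Hist2h3c1, and for Hist1h2be it lay between 1.26 and 1.31.

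The division of reads between near-identical copies differed from pair to pair. Hist2h3c1 and Hist2h3c2, the H3 pair whose promoters are shown above, had 49 and 39 reads and 0 and 0 reads in wild type. In knockout A all 56 reads were given to Hist2h3c2 and 0 to Hist2h3c1, and in knockout B 39 to Hist2h3c1 and 4 to Hist2h3c2. Their sum was 49 and 39 against 56 and 43 (ratio of scaled reads 1.05, interval 0.786 to 1.43), so the genotypes overlapped once the copies were summed. Neither gene's own fold change can be read as a difference between genotypes. Without the pair the H3 reads were 31 and 41 against 69 and 45 (ratio 1.50, interval 1.10 to 2.03). Hist1h2bq and Hist1h2br, with identical promoter windows, had identical values in every library, each with 9 and 7 wild-type reads and 22 and 19 knockout reads. Hist2h2aa2, whose copy Hist2h2aa1 has too many reads for recovery, had 51 and 13 reads against 52 and 78, so that the wild-type libraries differed more from each other than wild type A did from knockout A.

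**Figure D5:**
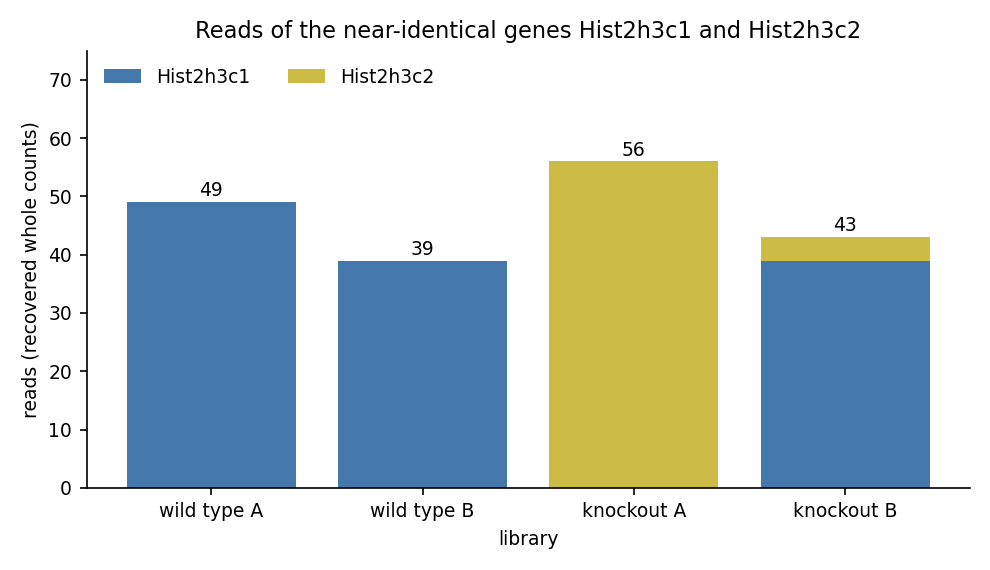
Recovered reads (y axis) of Hist2h3c1 and Hist2h3c2 stacked in each of the 4 libraries (x axis), with the sum above each bar. The sums lie between 39 and 56, while the division between the genes reverses in knockout A.

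The length of the deposited gene models differed among members. Of the 63 replication-dependent genes, 58 had models up to 1000 bases (median 487.5) and 5 had models over 1000 bases, namely Hist1h2al, Hist1h2be, Hist1h2bq, Hist1h2br and Hist2h2be. A model of the longer kind holds sequence beyond the short stem-loop transcript. For those 5 the reads summed to 67 and 60 against 139 and 148 (ratio of scaled reads 2.12, interval 1.72 to 2.64). For the 52 shorter genes with recovered reads they summed to 264 and 217 against 367 and 386 (1.47, 1.31 to 1.65). Both groups were higher in both knockout libraries, and the difference between them was not tested. Model length does not show how far a gene reaches. Hist1h2bc, which has no recovered reads, has a model of 728 bases but lies from 23684199 to 23692480 in RefSeq.

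Genes that make and handle histones were also described, from lists given in full by their counts. Of 27 measured genes of histone mRNA processing and transcription, 0 rose and 2 fell (7.41%, against 4.30% of all genes). These were the cyclin genes Ccne2 (log2 fold change -0.47, DESeq2 adjusted p 0.00488) and Ccna2 (-0.25, DESeq2 adjusted p 0.00152), which drive entry into and passage through S phase, in the authors' deposited table. Slbp, whose protein binds the histone stem-loop, had values of 890.6 and 867.7, and Npat, which activates histone genes, 850.5 and 826.8, in the authors' deposited table, neither called. Of 39 measured histone chaperone genes 0 were called, against 7.78% of all genes. An unadjusted DESeq2 p under 0.05 was reached by 7 of them, against 14.6% of all genes. Of 40 S phase and replication genes 0 rose and 6 fell (15%, against 4.30% of all genes), among them the helicase subunit gene Mcm6 (log2 fold change -0.46) and the ribonucleotide reductase gene Rrm2 (-0.29) in the authors' deposited table. The shares of all genes are not matched to the lists for depth. They include 6126 genes with a mean under 50, of which 1.65% were called. The lowest S phase gene, Gins1, had 98.5 and 89.4. In the authors' deposited table the median log2 fold changes of the 3 lists were -0.038, -0.052 and -0.15, beside 0.0036 for all genes. Low histone genes thus had more reads in the knockout libraries while these 6 replication genes were lower there, and the part of one in the other was not tested.

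Some markers of other cell types were called, while others of the same lists were near the floor and not called. All 12 fibroblast markers were present (Col1a2 at 130560 and 106979 in the authors' deposited table). Of these 9 were lower (75%, against 4.30% of all genes) and 1 higher (8.33%, against 3.48%). Of 17 macrophage markers 10 were higher and 0 lower (58.8%, against 3.48% of all genes higher), with summed signals of 707.4 and 2030 in the authors' deposited table. Of 7 epithelial markers 2 were lower, Krt8 and Krt18 (28.6%, against 4.30% of all genes). The 7 summed to 367.1 and 92.3 in the authors' deposited table, where Epcam had 1.99 and 1.97 and Cdh1 1.86 and 2.08. Of 8 endothelial markers 2 were higher (25%, against 3.48% of all genes) and 1 lower (12.5%, against 4.30%). They summed to 712.4 and 1049 in the authors' deposited table, where Pecam1 had 2.02 and 1.98. Of 5 skeletal muscle markers 2 were lower, Acta1 and Des (40%, against 4.30% of all genes). The 5 summed to 3583 and 1632 in the authors' deposited table, where Myod1 had 0.56 and 0.47. Of 6 neural markers 1 was lower (16.7%, against 4.30%), with sums of 794.3 and 777.8 in the authors' deposited table. As for the lists above, the shares of all genes are not matched for depth. Whether cells of these types were present, and their part in the histone values, was not tested. In bulk RNA fewer cells of a type and less RNA per cell cannot be told apart.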

How the data were processed

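The authors deposited 1 gene table. The submitters' processing notes name mm10 and the tools DESeq2, RSEM, Bowtie2 and HISAT2; for their versions and roles, the sources used here give nothing. For each genotype the authors deposited a single signal per gene, after normalisation. The log2 fold changes deposited by the authors equal the log2 ratio of those columns to within 9.13e-09. The p-value column was deposited by the authors, and its adjusted values equal Benjamini-Hochberg adjustment over 17441 genes to within 1.33e-06. The columns sum to 19428299 in wild type and 18910077 in knockout. The table gives no counts per library, so calls are those of the authors' test.

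The mean of the columns is the mean of reads over 4 size factors. Genes with a single read gave the value of 1 read in each library, and so size factors of 0.935 and 1.01 (wild type) and 1.03 and 1.03 (knockout). For all 6126 genes with a mean under 50, exactly 1 set of whole reads matched within 3e-08. Randomly shifted sums had a match in 0.490% of cases, and in 4.33% at means of 30 to 50. Reads may be rounded estimates. Limma 3.58.1 in R 4.3.3 was run on log2(scaled reads + 0.5) of 2458 genes with a mean of 5 to 50. Tested on simulated data for knockout versus wild type, recovery was right in 99.1% of 1500 genes. For limma such data held 2458 genes in all, 200 of them changed 4-fold. It called 148 of the 200 and 0 of the unchanged genes. How limma performs for smaller changes, or at the spread between libraries of the recovered reads, was not tested.

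Named were Cbx2, every called member, every member with a mean of 100 or more and at most 6 called genes per list. Genes with a lower mean were chosen after their values were seen. Members and lists were chosen with earlier results of these data known. Alternatives were other call rules, filters, scalings, added spread and pseudocounts. A z test used the fold change and its implied SE. Intervals cover counting error only. Promoters (66 members, RefSeq GRCm38.p6) were aligned globally in pairs.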

Additional observations from a re-analysis of the deposited data

How the results depend on the processing

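The fall of Hist1h2bc kept its direction and its call under each of the 7 alternatives in which it was tested; its mean of 212.8 lies below the median of 230.3, so that filter removed it. Of the 3 histone genes called, 1 was left by the authors' 2-fold rule, and 1 with a coefficient of variation of 10% or of 20% added per library. The count was 2 or 3 in the other settings. By limma on recovered reads 7 members with a mean of 5 to 50 were called instead of 0. Among them Hist1h2bq and Hist1h2br are 1 result, and the calls of the H3 pair cannot be read as differences between genotypes. The median log2 fold change of all 74 members was 0.11 as deposited, the value of members with a single knockout read. It lay between 0.0019 and 0.14 in the other settings. By scaled recovered reads it was 0.53 over another set, the 48 members with reads in both genotypes and a mean under 50. Class sums, as log2 ratios of knockout over wild type, changed without their highest member: H1 from 0.36 to -0.020, H2A from -0.046 to 0.058, H2B from -1.40 to 0.66 (that member is Hist1h2bc), H3 from 0.18 to 0.38, variant H1 from -0.18 to 0.051 and variant H2A from 0.023 to 0.12. With equal totals, a shift of 0.039, variant H2A was at 0.062 and H3.3 at 0.046 (0.0070 as deposited). The cause of other changes was not tested. The log2 ratio of recovered replication-dependent reads, 0.68, lay between 0.51 and 0.87 without 1 library, and between 0.55 and 0.76 without the H3 pair, without Hist1h2al or without the longer gene models. No paired analysis was possible because the columns carry 1 value per genotype and no replicate numbers. Leaving out a replicate was possible only for recovered reads. Depth limits the 40 members with a mean under 5, of which 18 with 5 or fewer reads in all 4 libraries allow no comparison.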
